A study of Homo sapiens with 24 samples.

Results

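AFP, GPC3, DLK1, H19, IGF2BP1, IGF2BP2, IGF2BP3, LIN28B, SALL4 and FHL2 are 10 genes that fetal liver, liver progenitors or hepatocellular carcinoma (HCC) express and that adult hepatocytes mostly keep low. Their probes were found by the RefSeq transcript that the scanner files give for each probe, and they are 10 of the 20503 genes that could be named in this way. They had 15 of the 50683 probes, and 12 of these were bright enough to be kept. In this way 9 of the 10 genes were tested among 24643 genes, and SALL4 was not. Only 15997 of those tested had a gene symbol, and shares of all genes are over all 24643, named or not.

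Gene expression was measured on 24 one-colour microarrays of HepaRG cells, a human HCC-derived line of hepatic progenitors that can form hepatocyte-like cells. There were 8 conditions, each with 3 arrays from separate cultures. Untransfected cells received nothing or 200 ng/ml mouse recombinant Wnt3a, and other untransfected cells received 300 ng/ml mouse FZD8_CRD, the Wnt-binding domain of a Frizzled receptor in soluble form, without or with the same dose of Wnt3a. Transfected cells received 80 pmol of a control siRNA or of an siRNA against β-catenin (CTNNB1) by electroporation in suspension, and were then left without or with Wnt3a. All treatments lasted 72 h in serum-free medium, and all arms were 1 cell line, so that the arrays say nothing of other HCC cells. The comparisons ask how Wnt3a acts on these genes, whether the response needs β-catenin, and how it changes when Wnt is bound outside the cell. Only the transfected arms were electroporated, so that electroporation and siRNA cannot be told apart when they are set against untransfected cells.

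Oncofetal genes are switched on in the embryonic liver, fall silent around or after birth, and can return in regeneration and cancer. AFP is the main serum protein of the fetus and a serum marker of HCC, GPC3 is a proteoglycan of the cell surface, and DLK1 is a membrane protein of hepatoblasts. H19 is an imprinted long non-coding RNA. IGF2BP1, IGF2BP2 and IGF2BP3 are RNA-binding proteins, LIN28B blocks the maturation of let-7 miRNAs, SALL4 is a zinc finger factor of embryonic stem cells and hepatoblasts, and FHL2 is a LIM protein that binds β-catenin and acts as a coactivator.

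Signals are given as log2 of the processed intensity over the 75th percentile of the same array, so that 0 is a signal equal to that percentile. A value of one probe cannot be set against that of another probe. Between 58.3% and 66.5% of probes were well above background on an array, and the number of arrays limits the precision. The replicate number was also the slide, and each condition had the same position on all 3 slides, so that position and condition cannot be told apart. CTNNB1 lay between 0.26 and 0.77 on the 6 arrays of cells given its siRNA and between 3.22 and 4.11 on the other arrays, which did not overlap (change -3.03 ± 0.17 (SE) without Wnt3a, limma adjusted p = 1.17e-09). All 12 hepatocyte markers were measured, and 6 of 8 biliary and progenitor markers, among them KRT7, KRT19 and SOX9, were well above background on all 24 arrays, while EPCAM was so on 1 array and PROM1 on 0. Of the 24 arrays, 6 lay nearer to the mean of another condition than to their own. One of them, FZD8_CRD array 3, lay at a root mean square distance of 0.303 from the FZD8_CRD plus Wnt3a mean and of 0.509 from the mean of the other FZD8_CRD arrays over all genes, so results whose size rests on it are given with and without it. On the same slide the untransfected array was nearer to the untransfected Wnt3a mean (0.338, against 0.438 to its own) and the untransfected Wnt3a array nearer to the untransfected mean (0.38, against 0.47). Untransfected Wnt3a array 2 was nearer to the control siRNA plus Wnt3a mean (0.348, against 0.459 to its own). All arrays were used as labelled, and whether labels were exchanged or Wnt3a reached the FZD8_CRD culture was not tested. In RNA from whole cultures, fewer cells of a type and less RNA per cell cannot be told apart.

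With FZD8_CRD, IGF2BP3 had the greatest Wnt3a change of the 9 genes, and the 250 bases before its start are shown because they hold the E-box CACGTG, to which MYC binds (RefSeq, GRCh38.p14, chr7:23470492-23470741, - strand, E-boxes in capitals).
IGF2BP3: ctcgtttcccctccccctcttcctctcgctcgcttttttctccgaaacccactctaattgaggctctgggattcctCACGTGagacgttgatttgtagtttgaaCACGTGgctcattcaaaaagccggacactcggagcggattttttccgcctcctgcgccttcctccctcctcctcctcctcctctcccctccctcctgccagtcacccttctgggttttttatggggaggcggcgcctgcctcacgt

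The E-boxes begin at -174 and -146, counted from the start of the gene. The letters read the same on both strands, and 6.34% of 35116 such windows of all genes hold at least 1. A match describes the letters and is not a site. RefSeq windows were at hand for 6 of the 10 genes, 11 in all, and 4 windows of 3 genes (IGF2BP3, LIN28B and FHL2) hold the E-box, of which the FHL2 pair overlap. The TCF/LEF letters CTTTGAT or CTTTGAA, searched on both strands and found in 2.26% and 3.8% of all windows, are in 1 of the 11, an IGF2BP2 window at -194. That they were not found says only that these letters are not in these windows.

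LIN28B is known to bind the precursors of let-7 miRNAs, and let-7 in turn is known to target LIN28B, HMGA2 and the IGF2BP genes. The let-7 seed (bases 2 to 8, in capitals) is shared by 11 of 2370 mature RefSeq miRNA names, here with 3 of them, and miR-675-5p is shown because its gene lies within H19.
let-7a-5p: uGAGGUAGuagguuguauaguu
let-7g-5p: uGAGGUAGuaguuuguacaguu
miR-98-5p: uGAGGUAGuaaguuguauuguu
miR-675-5p: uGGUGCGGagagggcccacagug

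In GRCh38.p14, let-7g-5p is at chr3:52268336-52268357 (- strand), miR-98-5p at chrX:53556299-53556320 (- strand) and miR-675-5p at chr11:1996800-1996822 (- strand), while let-7a-5p comes from 3 loci, among them chr9:94175962-94175983 (+ strand). The levels of these miRNAs were not analysed here.

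**Figure D1:**
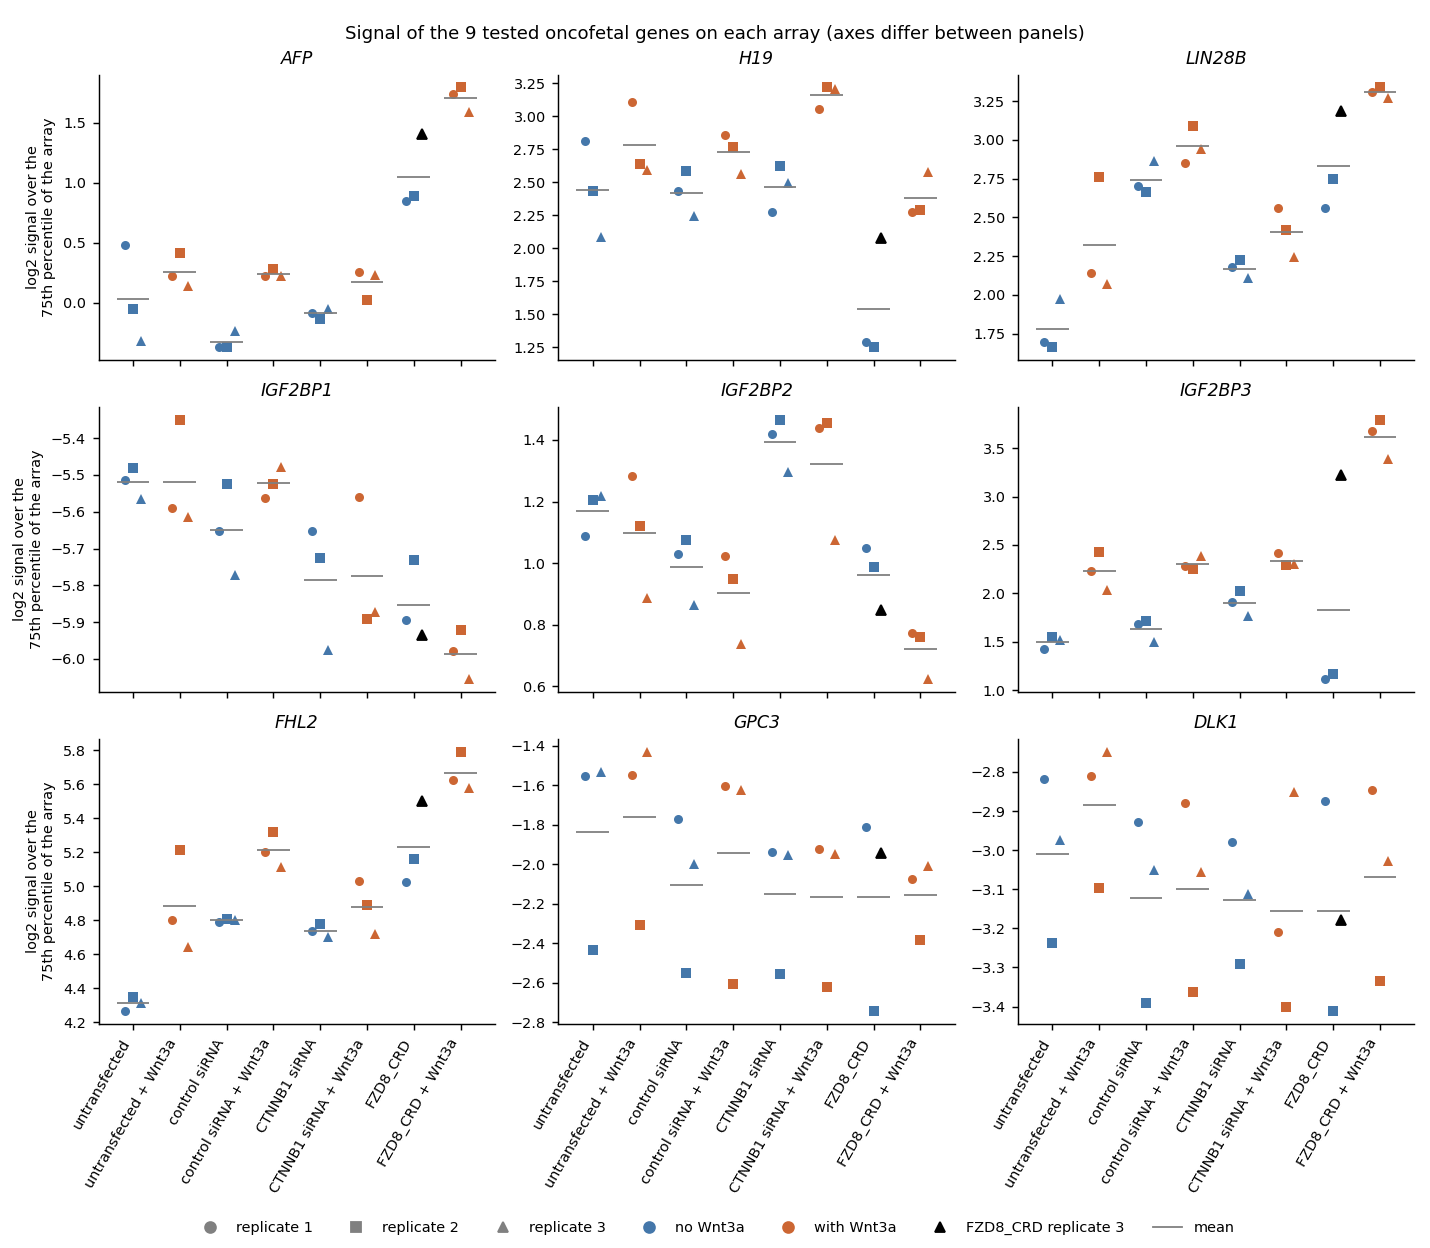
Log2 signal over the 75th percentile of the array (vertical axis, different in each panel) of the 9 tested genes on the 24 arrays by condition, with the condition mean as a line. AFP, LIN28B, IGF2BP3 and FHL2 have their highest means with FZD8_CRD plus Wnt3a, GPC3 is lowest on slide 2 (squares) in every condition, and FZD8_CRD array 3 (black) lies at 3.22 for IGF2BP3 where the other FZD8_CRD arrays lie at 1.12 and 1.16.

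With Wnt3a alone, FHL2 and LIN28B rose in untransfected cells, 2 of the 9 genes at an adjusted p under 0.05 where 5.6% of all genes were called. Without slide 3, which holds the untransfected arrays nearer to each other's mean, both calls held (LIN28B 0.77, limma adjusted p = 0.00452, and FHL2 0.70, adjusted p = 0.0019) and IGF2BP3 was called too (0.84, adjusted p = 0.00018). The LIN28B and FHL2 calls were both lost without untransfected Wnt3a array 2, which lay nearer to the control siRNA plus Wnt3a mean. After control siRNA 0 of 9 were called (2.11% of all genes), with 2 at an unadjusted p under 0.05. After CTNNB1 siRNA 0 of 9 were called (0.0406% of all genes), with 1 at an unadjusted p under 0.05. In the presence of FZD8_CRD, IGF2BP3, AFP, H19 and FHL2 rose with Wnt3a, 4 of 9 against 8.29% of all genes. The median change of the 9 genes was 0.22, 0.22, 0.14 and 0.44 in these 4 comparisons, and the median of all genes was 0.014, 0.024, 0.03 and 0.018. No gene of the 9 fell with Wnt3a in any of the 4, except IGF2BP2 with FZD8_CRD when the slide was taken as a block (adjusted p = 0.04). By the thresholds of the study (an unadjusted p under 0.01 with a fold over 1.5 or under 0.7) 0, 0, 1 and 3 of the 9 genes passed in the same order, against 4.42%, 2.76%, 1.27% and 5.73% of all genes. IGF2BP3 and FHL2 are among the genes that the study listed, by these thresholds, as Wnt3a-regulated from these same arrays. Their Wnt3a results are therefore not independent of that list. Yet neither passed these thresholds here in untransfected cells. FHL2 fell short by its fold (1.49). IGF2BP3 passed by its fold (1.66) but not by its unadjusted p. Its SE was 0.33 with all arrays and 0.10 without FZD8_CRD array 3. The reason for the difference from the study's list was not tested.

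**Figure D2:**
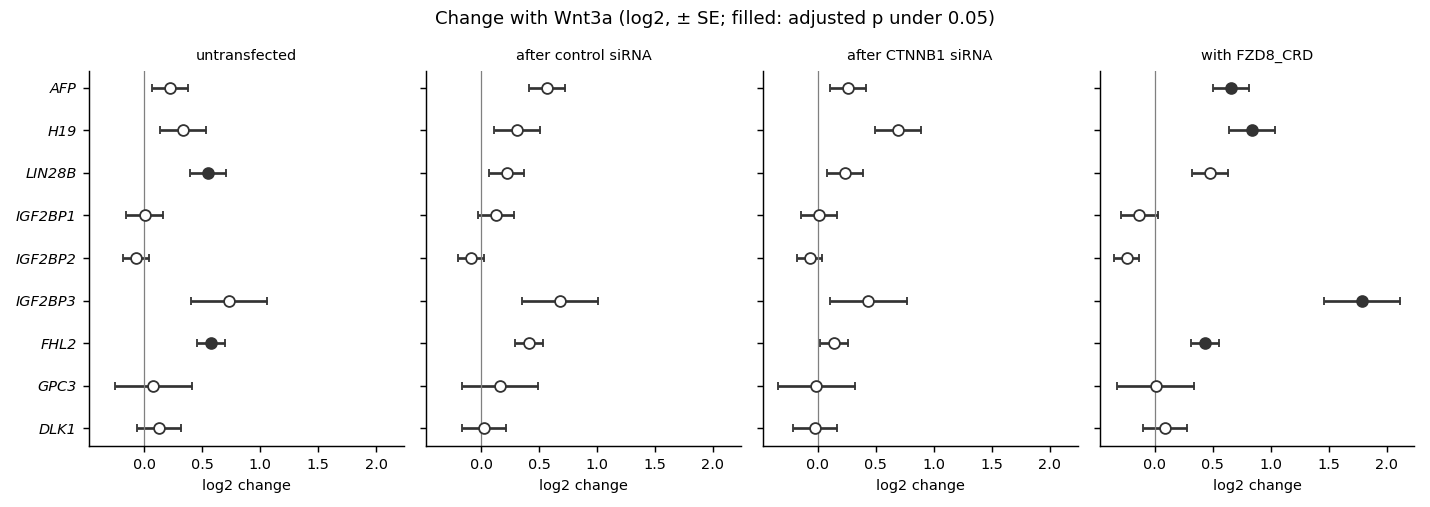
Log2 change with Wnt3a (horizontal axis, with minus without, ± SE) of the 9 genes in untransfected cells, after control siRNA, after CTNNB1 siRNA and with FZD8_CRD, filled where the adjusted p was under 0.05. FHL2 and LIN28B are filled in untransfected cells, and AFP, H19, IGF2BP3 and FHL2 with FZD8_CRD, where IGF2BP3 reached 1.79.

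IGF2BP3 (probe of NM_006547, gene at chr7:23310209-23470491) encodes an RNA-binding protein of the fetus that returns in many cancers. In untransfected cells its signal was 1.43, 1.55 and 1.51 without Wnt3a and 2.23, 2.42 and 2.03 with it. After control siRNA it was 1.68, 1.71 and 1.5 without and 2.28, 2.25 and 2.39 with Wnt3a. After CTNNB1 siRNA the values were 1.91, 2.03 and 1.77, and 2.42, 2.29 and 2.31. In all 3 pairs every Wnt3a array lay above every array without it. The changes were 0.73 ± 0.33, 0.68 ± 0.33 and 0.44 ± 0.33 (SE), none of which passed the test (limma adjusted p = 0.202, 0.365 and 0.743). Their error was set by 1 array: the SD of IGF2BP3 was 0.06 to 0.21 in 7 conditions and 1.20 in FZD8_CRD. Without FZD8_CRD array 3 the same changes had an SE of 0.10 and adjusted p-values of 0.000357, 0.00108 and 0.0597. With the slide as a block as well, the change after CTNNB1 siRNA passed the test too (0.44 ± 0.08, limma adjusted p = 0.0146).

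With FZD8_CRD, the IGF2BP3 signal was 1.12, 1.16 and 3.22, and with FZD8_CRD plus Wnt3a it was 3.68, 3.79 and 3.39. The FZD8_CRD arrays 1 and 2 were the lowest of all 24, and array 3 lay close to the Wnt3a-treated arrays. The rise was 1.79 ± 0.33, a 3.45-fold change (limma adjusted p = 0.00299), with differences within the slides of 2.56, 2.63 and 0.17. Without array 3 it was 2.48 ± 0.12, or 5.58-fold (adjusted p = 5.57e-11). The call was lost without slide 1 (adjusted p = 0.48) or slide 2 (0.41), where only 2 arrays a condition remain, and with only the conditions compared (0.247). The rise was 1.06 ± 0.46 greater than in untransfected cells, which did not pass the test (adjusted p = 0.344, with 0.073% of all genes called), and 1.75 ± 0.15 greater without array 3 (adjusted p = 9.35e-07, with 7.75% of all genes called). The order of the condition means put FZD8_CRD plus Wnt3a (3.62 ± 0.21, SD, n = 3) above the next condition by more than the spread, and 4 of the 7 neighbouring steps were within the larger SD.

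**Figure D3:**
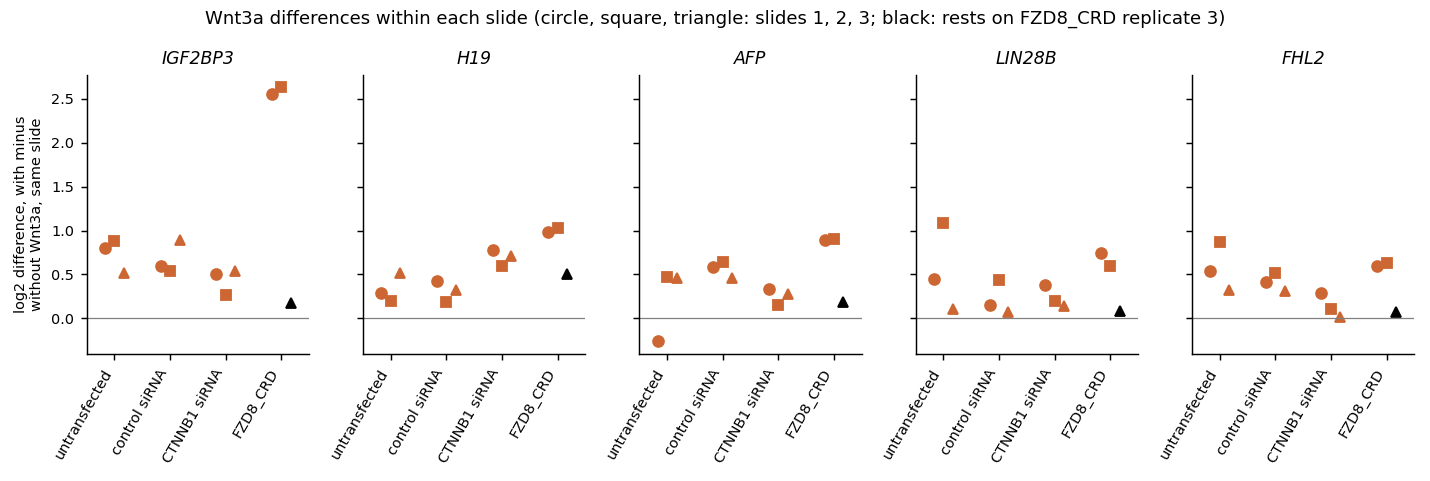
Log2 difference with minus without Wnt3a between arrays of the same slide (vertical axis) for IGF2BP3, H19, AFP, LIN28B and FHL2 in the 4 settings. The black triangles rest on FZD8_CRD array 3 and lie at 0.17 for IGF2BP3, 0.50 for H19 and 0.18 for AFP, below the other slides.

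Without Wnt3a, IGF2BP3 in FZD8_CRD was 0.33 ± 0.33 above untreated cells (limma adjusted p = 0.4445), a value whose sign rests on array 3, since without it IGF2BP3 was lower (-0.36 ± 0.12, adjusted p = 0.0179). With Wnt3a in both arms it was 1.39 ± 0.33 higher with FZD8_CRD, or 2.62-fold (adjusted p = 0.00234). That difference held on each slide, at 1.45, 1.37 and 1.36, although the call was lost without slide 1 (adjusted p = 0.0665). Neither the control siRNA (0.13 ± 0.33) nor the CTNNB1 siRNA (0.27 ± 0.33) gave a call. Without FZD8_CRD array 3 the latter had an adjusted p of 0.0922, and with the slide as a block as well it passed (SE 0.085, limma adjusted p = 0.0295). The genes with the most similar pattern over the 24 arrays were TNC, SLN and NREP (Pearson r of 0.969, 0.955 and 0.944), in arrays that share conditions and slides.

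Neither IGF2BP2 nor IGF2BP1 was called higher with Wnt3a in any setting. IGF2BP2 (chr3:185643130-185825042), expressed in adult tissues as well, lay at 1.09, 1.21 and 1.22 in untransfected cells, at 1.03, 1.07 and 0.86 after control siRNA and at 1.42, 1.47 and 1.30 after CTNNB1 siRNA. With Wnt3a the same conditions gave 1.28, 1.12 and 0.89, then 1.02, 0.95 and 0.74, and 1.44, 1.45 and 1.07. It was higher after CTNNB1 siRNA than after control siRNA, by 0.40 ± 0.11 (1.32-fold, limma adjusted p = 0.0224) without Wnt3a and by 0.42 ± 0.11 (adjusted p = 0.0167) with it, and the groups did not overlap in either. With FZD8_CRD its signal was 1.05, 0.99 and 0.85, and with FZD8_CRD plus Wnt3a 0.77, 0.76 and 0.62, the lowest condition. It was lower there than with Wnt3a alone (-0.38 ± 0.11, adjusted p = 0.0108). With the slide as a block, IGF2BP2 also fell with Wnt3a in FZD8_CRD (-0.24, adjusted p = 0.04, against 0.214 without the block) and from untreated cells to FZD8_CRD (-0.21, adjusted p = 0.0257, against 0.139). A second, dimmer probe (-3.19 to -1.78) was lower in FZD8_CRD plus Wnt3a than in Wnt3a too (-0.71 ± 0.26, adjusted p = 0.0389), and with the mean of both probes the CTNNB1 siRNA calls were lost (adjusted p = 0.197 and 0.229).

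Calls of IGF2BP2 were sensitive to single arrays. Without Wnt3a the CTNNB1 siRNA call was lost without control siRNA array 1 or 3 (adjusted p = 0.0549 and 0.104) or without CTNNB1 siRNA array 1 or 2 (0.0711 and 0.0861). With Wnt3a it was lost without control siRNA array 3 (0.0988) or CTNNB1 siRNA array 1 or 2 (0.078 and 0.0993). The FZD8_CRD call with Wnt3a was lost without untransfected array 1 (0.0797). The direction was the same in all of these fits. A call lost with an array fewer does not by itself show a smaller change.

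IGF2BP1 (chr17:48996558-49056145) was near background throughout. Its signal was between -6.05 and -5.35 on the 24 arrays, it was well above background on 14 of them and on 0 of the 3 arrays of FZD8_CRD plus Wnt3a. It entered the fit only through conditions in which all 3 arrays measured it. Against Wnt3a alone it was called lower there (limma adjusted p = 0.0235), but no size was measured. The means differed 1.38-fold between values near background, and with Wnt3a alone only 2 of 3 arrays measured it. Since it was admitted through its brighter conditions, this call adds little to the count. It was lost under quantile normalization (adjusted p = 0.449) and normexp background correction (0.202), and without Wnt3a array 2 (0.09) or FZD8_CRD plus Wnt3a array 1 or 3 (0.0533 and 0.0723).

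For transcripts that IGF2BP proteins are known to bind, 7 of 8 could be tested. CD44, a hyaluronan receptor, rose with Wnt3a by 0.27 ± 0.07 in untransfected cells (limma adjusted p = 0.0338), by 0.48 ± 0.07 after control siRNA (0.00263) and by 0.31 ± 0.07 with FZD8_CRD (0.00975), and was 1 of 7 called in each, with 0 of 7 after CTNNB1 siRNA. In these settings 5.6%, 2.11%, 8.29% and 0.0406% of all genes were called, in that order. The median of the 7 was 0.016 in untransfected cells, 0.045 after control siRNA, -0.0004 after CTNNB1 siRNA and 0.013 with FZD8_CRD. IGF2, the transcript that names the family, was well above background on at most 1 array and was not tested.

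LIN28B (NM_001004317, chr6:104937026-105083332) rose with Wnt3a in untransfected cells and was higher after control siRNA or with FZD8_CRD than in untreated cells. In untransfected cells its signal was 1.69, 1.67 and 1.97 without Wnt3a and 2.14, 2.76 and 2.07 with it. After control siRNA it was 2.70, 2.66 and 2.86 without and 2.85, 3.09 and 2.94 with Wnt3a. After CTNNB1 siRNA it was 2.18, 2.22 and 2.11, and 2.56, 2.42 and 2.24. These values overlapped between conditions with and without Wnt3a only after control siRNA. With FZD8_CRD the signal was 2.56, 2.75 and 3.18, and with FZD8_CRD plus Wnt3a 3.31, 3.34 and 3.27, the highest condition and the one with the smallest spread (SD 0.03).

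The Wnt3a rise of LIN28B in untransfected cells was 0.55 ± 0.15, or 1.46-fold (limma adjusted p = 0.043). The call depended on single arrays, which by itself does not show that the rise was smaller without them. It was lost without untransfected array 1 or 2 (0.153 and 0.155) or Wnt3a array 2 (0.338), the array on which LIN28B was highest, hepatocyte markers lowest (summed log2 signal 8.65) and proliferation markers highest (6.66) of that condition. That array also lay nearer to the control siRNA plus Wnt3a mean than to its own. The call was also lost with no filter (0.0941), with no moderation (0.0667), with only the conditions compared (0.488) and when arrays were scaled to spike-ins (0.16, adjusted p = 0.646), a scaling that moved the median of all genes by -0.39. With FZD8_CRD the rise was 0.48 ± 0.15 (adjusted p = 0.0638), which passed with the slide as a block (0.0484) and without FZD8_CRD array 3 (0.65 ± 0.15, adjusted p = 0.00403). After control siRNA it was 0.22 ± 0.15 (adjusted p = 0.6405).

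**Figure D4:**
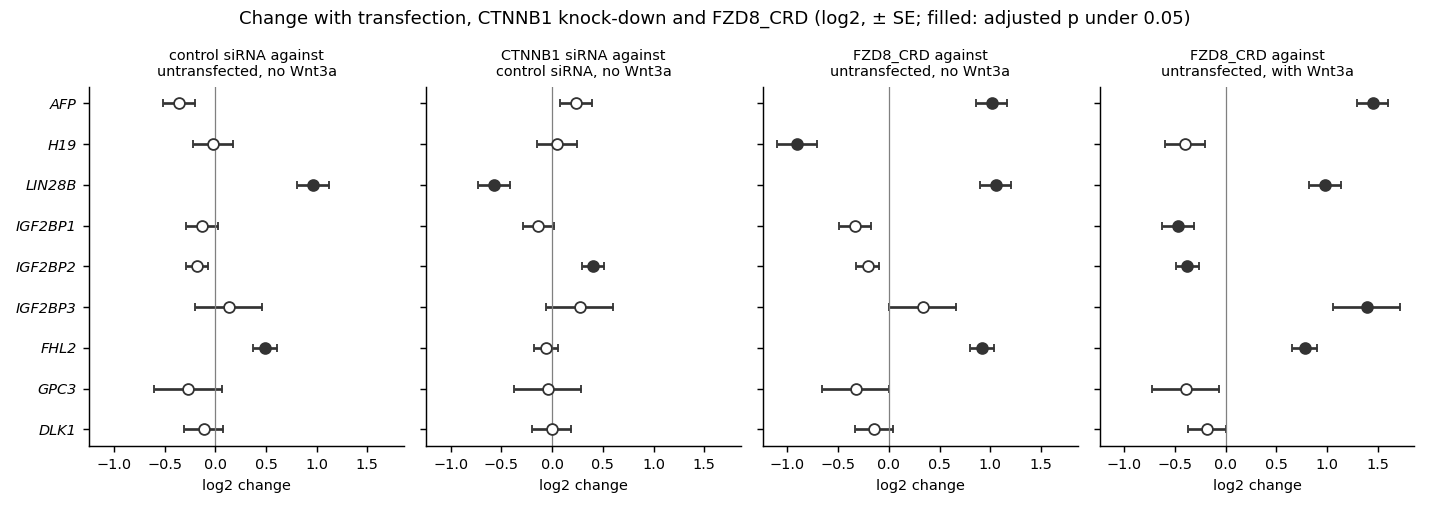
Log2 change (horizontal axis, ± SE) of the 9 genes, filled where the adjusted p was under 0.05. Control siRNA is compared with untransfected cells and CTNNB1 siRNA with control siRNA, both without Wnt3a only. FZD8_CRD is compared with no FZD8_CRD, without and with Wnt3a. LIN28B is filled in every panel, below 0 for CTNNB1 siRNA and above 0 in the others, and AFP is 1.01 and 1.45 above for FZD8_CRD.

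The comparisons without Wnt3a against untransfected cells share the untransfected arrays. Control siRNA raised LIN28B and FHL2 over untransfected cells, 2 of the 9 genes where 22.3% of all genes were called, and with Wnt3a LIN28B alone of the 9 was called (9.04% of all genes). LIN28B was 0.96 ± 0.15 higher without Wnt3a, or 1.95-fold (limma adjusted p = 0.000298), and 0.64 ± 0.15 higher with it (adjusted p = 0.0152), on each slide in both. CTNNB1 siRNA lowered LIN28B and raised IGF2BP2 against control siRNA, 2 of 9 without and 2 of 9 with Wnt3a, where 10.6% and 10.6% of all genes were called. LIN28B fell by 0.57 (SE 0.15, adjusted p = 0.0212) without and by 0.55 (SE 0.15, adjusted p = 0.0237) with Wnt3a, and these groups did not overlap. The levels after CTNNB1 siRNA, at 2.17 ± 0.06 (SD, n = 3) without Wnt3a, lay above those of untransfected cells at 1.78 ± 0.17 with no overlap, a pair that was not tested.

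FZD8_CRD raised FHL2, AFP and LIN28B over untreated cells and lowered H19, 4 of 9 where 41.9% of all genes were called. With Wnt3a in both arms 6 of 9 were called against 37.2%, AFP, IGF2BP3, LIN28B and FHL2 higher and IGF2BP2 and the dim IGF2BP1 lower. A share of 4 of 9 is near that of all genes in the first of these comparisons. LIN28B was 1.05 ± 0.15 higher without Wnt3a (2.08-fold, limma adjusted p = 2.12e-05, and 0.88 ± 0.15 without FZD8_CRD array 3) and 0.98 ± 0.15 higher with Wnt3a (adjusted p = 6.4e-05), and both calls held under every alternative setting and array left out. The control siRNA call without Wnt3a was lost only without slide 1 (0.0535) and scaled to spike-ins (0.097). With Wnt3a the control siRNA call was lost without untransfected array 1 or 3 (0.11 and 0.074) or control siRNA array 2 (0.0922). Against control siRNA, the fall without Wnt3a was lost without control siRNA array 1 or 3 (0.0561 and 0.0878) or CTNNB1 siRNA array 1 or 3 (0.0571 and 0.0852), and the fall with Wnt3a without control siRNA array 2 or 3 (0.105 and 0.0578) or CTNNB1 siRNA array 2 or 3 (0.0678 and 0.114).

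Markers of differentiation and division moved in the same comparisons. Of all genes, 22.3% and 41.9% were called for control siRNA and FZD8_CRD without Wnt3a, and 9.04% and 37.2% with it. In control siRNA against untransfected cells, 12 of 12 hepatocyte markers fell (median -1.96) and 10 of 10 proliferation markers rose (median 1.05). In FZD8_CRD against untreated cells the same lists gave 12 of 12 lower (median -2.37) and 10 of 10 higher (median 1.55). With Wnt3a in both arms 7 and 8 of 12 hepatocyte markers fell and 9 of 10 proliferation markers rose in each. The summed hepatocyte signal ranged from 9.63 to 10.57 in untransfected cells, from 8.58 to 8.70 after control siRNA and from 7.98 to 8.55 with FZD8_CRD, and the summed proliferation signal from 5.69 to 6.22, from 6.87 to 6.97 and from 7.21 to 7.56. Their part in the LIN28B, FHL2 and AFP differences was not tested. In CTNNB1 siRNA against control siRNA 0 of 10 proliferation markers were called in either comparison, and 0 and 2 of 12 hepatocyte markers, the 2 higher. There 10.6% of all genes were called in each.

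**Figure D5:**
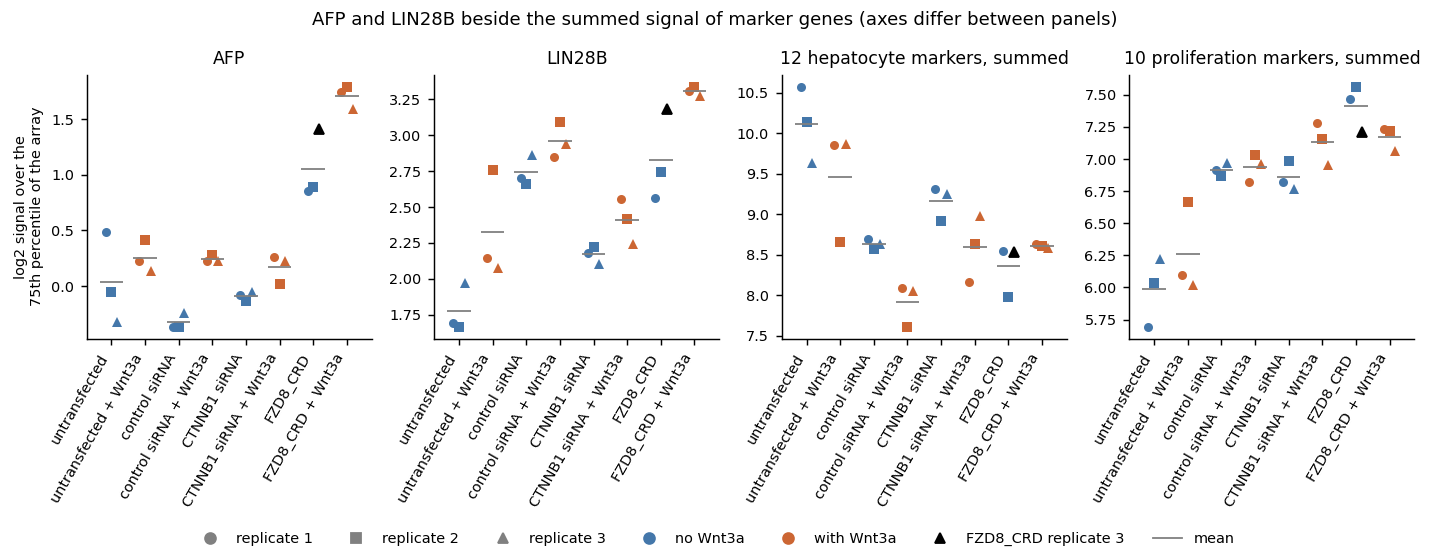
AFP and LIN28B beside the summed signal of 12 hepatocyte markers and of 10 proliferation markers on each array (vertical axes in log2 signal over the 75th percentile, different in each panel), with condition means as lines. Untransfected cells without Wnt3a have the highest hepatocyte sums (9.63 to 10.57) and low proliferation sums, while AFP is highest with FZD8_CRD plus Wnt3a (1.59 to 1.79).

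Other genes of the LIN28/let-7 axis were measured beside LIN28B, 13 of 15. LIN28A, its paralog of embryonic cells, was not well above background often enough to be tested. With Wnt3a 0 of 13 were called in untransfected cells, after control siRNA and after CTNNB1 siRNA, and 1 of 13 with FZD8_CRD, where the chromatin protein HMGA1 was lower (-0.72 ± 0.13, limma adjusted p = 0.00212). In the same order 5.6%, 2.11%, 0.0406% and 8.29% of all genes were called with Wnt3a. In FZD8_CRD against untreated cells 4 of 13 rose and 1 fell, a share near the 41.9% of all genes. The export factor of miRNA precursors, XPO5, rose by 0.54 ± 0.10 (adjusted p = 0.000214), MYC by 0.58 ± 0.10 (0.00015), ARID3B by 0.61 ± 0.12 (0.000474) and HMGA1 by 0.51 ± 0.13 (0.00295), while TUT7, which adds uridines to let-7 precursors, fell by 0.34 (SE 0.12, 0.0227). After CTNNB1 siRNA without Wnt3a, HMGA1 was lower (-0.43 ± 0.13, adjusted p = 0.0343), and the cyclin CCND2 (0.71 ± 0.12, adjusted p = 0.000551) and ARID3B (0.40 ± 0.12, adjusted p = 0.0419) were higher than after control siRNA. Control siRNA itself raised HMGA1 (0.53 ± 0.13, adjusted p = 0.00491) and XPO5 (0.33 ± 0.10, adjusted p = 0.0214). The medians of the 13 lay between -0.067 and 0.25 over the 10 comparisons of conditions.

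FHL2 (chr2:105357712-105438529) had a pattern close to that of LIN28B, with a Pearson r of 0.933 over the 24 arrays, which share conditions and slides. In untransfected cells its signal was 4.27, 4.35 and 4.32 without Wnt3a and 4.80, 5.22 and 4.64 with it. After control siRNA it was 4.79, 4.81 and 4.80, and with Wnt3a 5.20, 5.32 and 5.11. After CTNNB1 siRNA it was 4.74, 4.78 and 4.70, and with Wnt3a 5.03, 4.89 and 4.72. Groups with and without Wnt3a overlapped only after CTNNB1 siRNA. With FZD8_CRD FHL2 lay at 5.03, 5.16 and 5.50, and with FZD8_CRD plus Wnt3a at 5.63, 5.79 and 5.58.

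FHL2 rose with Wnt3a by 0.58 ± 0.12 in untransfected cells (1.49-fold, limma adjusted p = 0.0108) and by 0.44 ± 0.12 with FZD8_CRD (1.35-fold, adjusted p = 0.0313, and 0.57 ± 0.12 with 0.00176 without FZD8_CRD array 3). After control siRNA the change was 0.41 ± 0.12 (adjusted p = 0.0836) and after CTNNB1 siRNA 0.14 ± 0.12 (adjusted p = 0.796), and the difference between these responses, -0.27 ± 0.17, did not pass the test (adjusted p = 1). Without FZD8_CRD array 3 the change after control siRNA passed (adjusted p = 0.03) and FHL2 was lower after CTNNB1 siRNA plus Wnt3a than after control siRNA plus Wnt3a (-0.33 ± 0.11, adjusted p = 0.0465, against 0.0939 with that array). A second probe of FHL2 gave 0.72 ± 0.13, 0.56 ± 0.13, 0.24 ± 0.14 and 0.46 ± 0.13 for the 4 Wnt3a comparisons (adjusted p = 0.00437, 0.0306, 0.612 and 0.0312), where the spot of CTNNB1 siRNA array 1 carried an outlier mark and was left out. The untransfected call was lost without untransfected array 1 (0.0506) or Wnt3a array 2 (0.0931), scaled to spike-ins (0.586) and with the mean of both probes (0.0826). Each probe alone passed in untransfected cells, and why their mean did not was not tested. The second probe was dimmer (2.35 against 4.74 after CTNNB1 siRNA) and was left out on the array named above, so that the mean is a poor check. With FZD8_CRD the call was lost without FZD8_CRD array 1 or 2 (0.234 and 0.166), without each single array of FZD8_CRD plus Wnt3a (0.0762, 0.141 and 0.0516), with no filter (0.0719), with no moderation (0.0505) and scaled to spike-ins (0.35, with an adjusted p of 1).

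Against untransfected cells FHL2 was 0.49 ± 0.12 higher after control siRNA (limma adjusted p = 0.00645) and 0.92 ± 0.12 higher with FZD8_CRD (1.89-fold, adjusted p = 7.33e-06, and 0.78 ± 0.12 without FZD8_CRD array 3), and with Wnt3a in both arms it was 0.78 ± 0.12 higher with FZD8_CRD (adjusted p = 6.06e-05). These calls held when any single array was left out, and all 3 were lost when arrays were scaled to spike-ins (adjusted p = 0.619, 0.0978 and 0.0718). That for control siRNA was also lost without slide 1 (0.159) and with the mean of both probes (0.0635), which has the limit given above. Of the other FHL genes, FHL3 rose with Wnt3a in untransfected cells (0.67 ± 0.17, adjusted p = 0.0296) and with FZD8_CRD (0.59 ± 0.17, adjusted p = 0.0388). With Wnt3a in both arms FHL3 was lower after CTNNB1 siRNA than after control siRNA (-0.59 ± 0.17, adjusted p = 0.0329). With the slide as a block it also rose with Wnt3a after control siRNA (0.48, adjusted p = 0.0328, against 0.172). The block also called it higher than in untransfected cells after control siRNA (0.34, adjusted p = 0.0412, against 0.181) and with FZD8_CRD (0.43, adjusted p = 0.00649, against 0.0518). So it did in FZD8_CRD plus Wnt3a against Wnt3a (0.35, adjusted p = 0.0238, against 0.119). FHL5 was well above background on 0 arrays. FHL1 was called in 0 comparisons, and with the slide as a block it was called after CTNNB1 siRNA against control siRNA without Wnt3a (0.44, adjusted p = 9.39e-05, against 0.0819) and in FZD8_CRD plus Wnt3a against Wnt3a (-0.27, adjusted p = 0.00165, against 0.204). Most similar to FHL2 over the arrays were CRISPLD2, EIF4E2 and MCUB (r = 0.973, 0.97 and 0.966), and to LIN28B GALNT7, TMEM107 and STYK1 (0.971, 0.965 and 0.962).

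Fibroblast and mesenchymal markers were called in 3 of the 4 Wnt3a comparisons, 6 of 11 higher and 1 lower in untransfected cells, 4 higher and 1 lower after control siRNA, 0 of 11 after CTNNB1 siRNA and 7 higher and 1 lower with FZD8_CRD. In the same order 5.6%, 2.11%, 0.0406% and 8.29% of all genes were called. Their summed signal ranged from 4.56 to 4.66 without and from 4.94 to 5.44 with Wnt3a in untransfected cells, and from 4.60 to 4.86 and from 5.27 to 5.42 with FZD8_CRD. Hepatocyte and proliferation markers gave 0 of 12 and 0 of 10 calls with Wnt3a in the settings without FZD8_CRD. The summed hepatocyte signal was nonetheless lower with Wnt3a after control siRNA, at 7.61 to 8.09 against 8.58 to 8.70 without it. With and without Wnt3a it overlapped in untransfected cells (8.65 to 9.87 and 9.63 to 10.57) and after CTNNB1 siRNA (8.17 to 8.98 and 8.91 to 9.31). As a check of the treatment, 5 of 10 feedback genes of Wnt signaling rose with Wnt3a in untransfected cells, 5 of 10 after control siRNA and 0 of 10 after CTNNB1 siRNA, and with FZD8_CRD 2 rose and 2 fell. The part of these markers in the changes of the 9 genes was not tested.

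AFP (NM_001134, chr4:73436221-73456174) was highest when FZD8_CRD and Wnt3a were given together. In untransfected cells its signal was 0.48, -0.05 and -0.32 without and 0.22, 0.41 and 0.14 with Wnt3a. After control siRNA it was -0.36, -0.37 and -0.24 without and 0.22, 0.28 and 0.22 with Wnt3a, and after CTNNB1 siRNA -0.08, -0.13 and -0.05, and 0.26, 0.02 and 0.23. With FZD8_CRD it was 0.85, 0.89 and 1.41, and with FZD8_CRD plus Wnt3a 1.74, 1.79 and 1.59. All 6 arrays with FZD8_CRD lay above all others, and the groups with and without Wnt3a were apart in every setting but untransfected cells. In the order of the means, FZD8_CRD plus Wnt3a (1.71 ± 0.10, SD, n = 3) and FZD8_CRD (1.05 ± 0.31) led by more than the spread, and 4 of the 7 neighbouring steps were within the larger SD.

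FZD8_CRD raised AFP by 1.01 ± 0.15 over untreated cells (2.02-fold, limma adjusted p = 3.25e-05, and 0.83 ± 0.15 without FZD8_CRD array 3) and by 1.45 ± 0.15 when Wnt3a was present in both arms (2.73-fold, adjusted p = 1.57e-06). The second held under every setting and array left out, and the first was lost when arrays were scaled to spike-ins (0.62, adjusted p = 0.0586). Wnt3a raised AFP by 0.66 ± 0.15 in the presence of FZD8_CRD (1.58-fold, adjusted p = 0.0124), and by 0.84 ± 0.15 without FZD8_CRD array 3 (adjusted p = 0.000461). This call was lost without FZD8_CRD array 1 or 2 (0.11 and 0.101) or FZD8_CRD plus Wnt3a array 1 or 2 (0.0519 and 0.0605), scaled to spike-ins (0.609) and with only the conditions compared (0.212). After control siRNA the change was 0.57 ± 0.15 (1.48-fold), which missed the threshold (adjusted p = 0.0616) and passed it with the slide as a block (0.0493), with only the conditions compared (0.00979) and without FZD8_CRD array 3 (0.0177). In untransfected cells it was 0.22 ± 0.15 (adjusted p = 0.471), with 1 slide of the 3 in the other direction. The differences between Wnt3a responses of AFP did not pass the test, at 0.44 ± 0.22 between FZD8_CRD and untransfected cells (adjusted p = 0.4225, and 0.62 ± 0.20 with 0.0694 without array 3) and -0.31 ± 0.22 between CTNNB1 and control siRNA (adjusted p = 1).

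ALB, the main serum protein of the adult and a neighbour of AFP on chromosome 4, moved the other way where AFP rose with FZD8_CRD. Its mean signal was 9.41 in untransfected cells and 7.60 with FZD8_CRD (-1.81 ± 0.31, limma adjusted p = 0.000104). Of 14 tested genes of the albumin family and regulators of AFP, 9 fell in that comparison and 0 rose, where 41.9% of all genes were called. Their median was -1.13 against -0.085 over all genes. Afamin (AFM), another member of the albumin family, fell by 5.57 (SE 0.69, adjusted p = 3.85e-06). The liver factor FOXA1 fell by 1.54 (SE 0.26, adjusted p = 9.19e-05) and ZBTB20, a repressor of AFP after birth, fell by 0.62 (SE 0.18, adjusted p = 0.00871). ZHX2, another postnatal repressor of AFP and H19, was not called in any comparison. Control siRNA lowered 7 of the 14, where 22.3% of all genes were called. Among them were AFM (-4.33 ± 0.69, adjusted p = 0.000296), NR5A2 (-1.36 ± 0.25, adjusted p = 0.000703) and ALB (-1.65 ± 0.31, adjusted p = 0.000893). AFP changed there by -0.36 ± 0.15 (adjusted p = 0.107), a fall that passed without FZD8_CRD array 3 and with the slide as a block (adjusted p = 0.0389). With Wnt3a in both arms FZD8_CRD lowered 6 of the 14 and raised FOXA3 (0.85 ± 0.18, adjusted p = 0.000873), where 37.2% of all genes were called. With Wnt3a itself 1 of 14 fell in untransfected cells, NR5A2 (-1.29 ± 0.25, adjusted p = 0.00666), and 2 with FZD8_CRD, FOXA1 and CEBPA. In these settings 5.6% and 8.29% of all genes were called. DYRK3 and LRRC3 were most like AFP over the arrays (r = 0.968 and 0.962).

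H19 (NR_002196, chr11:1995176-2001266) was lowest with FZD8_CRD and rose there with Wnt3a. Its signal was 2.82, 2.44 and 2.08 in untransfected cells and 3.10, 2.64 and 2.59 with Wnt3a. After control siRNA it was 2.43, 2.58 and 2.24, and 2.86, 2.77 and 2.56 with Wnt3a. After CTNNB1 siRNA it was 2.27, 2.62 and 2.49, and 3.05, 3.22 and 3.20 with Wnt3a. The groups overlapped in untransfected cells and after control siRNA, and were apart after CTNNB1 siRNA. With FZD8_CRD H19 was 1.29, 1.25 and 2.07, and with FZD8_CRD plus Wnt3a 2.27, 2.29 and 2.58, so that 2 of the 3 FZD8_CRD arrays were far below all others.

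Wnt3a raised H19 by 0.84 ± 0.20 in the presence of FZD8_CRD (1.79-fold, limma adjusted p = 0.0126), with 0.98, 1.03 and 0.50 within the slides, and by 1.11 ± 0.18 without FZD8_CRD array 3 (2.15-fold, adjusted p = 0.000176). After CTNNB1 siRNA the change was 0.69 ± 0.20 (1.62-fold), which did not pass the test (limma adjusted p = 0.227, 0.0554 without FZD8_CRD array 3, and 0.0283 with the slide as a block as well). It was the gene that passed the study's thresholds there. In untransfected cells and after control siRNA the changes were 0.33 ± 0.20 and 0.31 ± 0.20 (adjusted p = 0.363 and 0.57). FZD8_CRD lowered H19 by 0.90 against untreated cells (SE 0.20, adjusted p = 0.00102), a difference of -1.52 and -1.18 on slides 1 and 2 and of -0.0073 on slide 3 (-1.17 ± 0.18 without FZD8_CRD array 3, adjusted p = 4.64e-05). With Wnt3a in both arms H19 was lower with FZD8_CRD by 0.40 (SE 0.20, adjusted p = 0.122). That difference passed without FZD8_CRD array 3 and with the slide as a block (adjusted p = 0.0391). A second H19 probe changed by 0.87 ± 0.24 with Wnt3a in FZD8_CRD (adjusted p = 0.0287) and by -0.92 ± 0.24 from untreated cells to FZD8_CRD (adjusted p = 0.0042). The Wnt3a call was lost without FZD8_CRD array 1 or 2 (0.11 and 0.112) or FZD8_CRD plus Wnt3a array 3 (0.0603), scaled to spike-ins (0.234) and with only the conditions compared (0.233), and the FZD8_CRD call without slide 1 or 2 (0.0785 and 0.0668).

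DLK1 and GPC3 were not called in any comparison of the 13. DLK1 (chr14:100726892-100738224), imprinted like H19, lay between -3.41 and -2.75 on all arrays, and all 7 neighbouring steps in the order of its conditions were within the larger SD. GPC3 (chrX:133535745-133985594) lay between -2.74 and -2.31 on slide 2 and between -2.08 and -1.43 on slides 1 and 3, in all 8 conditions. The slide 2 values did not overlap those of the other slides. With the slide as a block GPC3 was lower with FZD8_CRD than in untreated cells (-0.33, limma adjusted p = 0.0186, against 0.462 without the block) and lower with FZD8_CRD plus Wnt3a than with Wnt3a (-0.39, adjusted p = 0.00674, against 0.383). DLK1 too was lowest on slide 2, with a mean of -3.32 against -2.92 and -3.00, and the r of 0.869 between both genes over the arrays includes this shared split. Each had a second probe that was well above background on 1 array, and these were not kept.

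Of 12 tested imprinted genes of fetal growth, 0 were called with Wnt3a in the 4 settings, where between 0.0406% and 8.29% of all genes were called. In FZD8_CRD against untreated cells 3 of 12 were called, where 41.9% of all genes were. Of these, SGCE was higher (0.28 ± 0.10, limma adjusted p = 0.0363) and NNAT lower (-0.53 ± 0.13, adjusted p = 0.00205). The growth inhibitor CDKN1C was lower too, with all FZD8_CRD arrays at the detection floor. Among 8 glypicans and partners of GPC3, GPC2 and the tetraspanin CD81 rose with Wnt3a in untransfected cells (0.55 ± 0.15 and 0.36 ± 0.08, adjusted p = 0.0402 and 0.0106), where 5.6% of all genes were called. With Wnt3a in FZD8_CRD, GPC6 fell (-1.04 ± 0.24, adjusted p = 0.0118) and GPC5 was called lower (adjusted p = 0.0332) with a mean near the detection floor, so that its size was not measured. After control siRNA 4 of 8 were called, where 22.3% of all genes were. GPC1 (0.81 ± 0.10, adjusted p = 7.38e-05) and CD81 were higher than in untransfected cells, and GPC6 (-0.87 ± 0.24, adjusted p = 0.0128) and the heparan sulfatase SULF1 were lower. With FZD8_CRD 2 of 8 were higher and 3 lower than in untreated cells, where 41.9% of all genes were called. Higher were GPC1 (0.62 ± 0.10, adjusted p = 8.22e-05) and CD81 (0.35 ± 0.08, adjusted p = 0.00084). Among those lower were SULF1 (-0.93 ± 0.17, adjusted p = 0.000203) and GPC6 (-0.72 ± 0.24, adjusted p = 0.0213).

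SALL4 (chr20:51782331-51802521) was at the detection floor on 23 of 24 arrays and at -3.68 on Wnt3a array 2 of untransfected cells, so that no change was tested. Of 8 related factors 5 were tested. POU5F1, known from embryonic stem cells and with many pseudogenes that a probe may also read, was lower after control siRNA (-1.19 ± 0.15, limma adjusted p = 6.45e-05) and with FZD8_CRD (-1.28 ± 0.15, adjusted p = 1.75e-06) than in untransfected cells, and higher after CTNNB1 siRNA than after control siRNA (0.75 ± 0.15, adjusted p = 0.00224). The kidney and limb factor SALL1 was lower in the first pair of these comparisons (-0.73 ± 0.21 and -0.86 ± 0.21, adjusted p = 0.0155 and 0.00242).

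By the thresholds of the study, 1 of 9 genes passed in each of the 4 comparisons with siRNA (10.9% and 5.48% of all genes for control siRNA without and with Wnt3a, 5.66% and 6.46% for CTNNB1 siRNA), and 4 of 9 in both comparisons with FZD8_CRD (22.4% and 18.9%). The Wnt3a response was also compared between settings. Between CTNNB1 and control siRNA 0 of 9 genes differed (0.0162% of all genes), with 0 at an unadjusted p under 0.05. Between FZD8_CRD and untransfected cells 0 of 9 differed (0.073% of all genes), with 1, IGF2BP3, at an unadjusted p under 0.05. Between control siRNA and untransfected cells 0 of 9 differed (0% of all genes), with 0 at an unadjusted p under 0.05. Without FZD8_CRD array 3 the FZD8_CRD response differed for IGF2BP3, and with the slide as a block as well it differed for IGF2BP3 (1.79 ± 0.13, limma adjusted p = 1.45e-07), H19 (0.82 ± 0.23, adjusted p = 0.0279) and AFP (0.65 ± 0.20, adjusted p = 0.0361). Otherwise a response that passed in one setting and not in another is not shown to differ.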

How the data were processed

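RNA of 24 HepaRG cultures (150 ng each) was labelled with Cy3 and hybridised to Agilent one-colour arrays with 62976 spots. The deposited scanner files hold spot intensities, background-subtracted as processed signal by the authors with Agilent Feature Extraction (version 10.7.3.1 per the submitters' processing notes). The authors also deposited log2 values of 25443 probes, scaled to the 75th percentile and, from the values, centred on each probe's median (column medians -0.0502 to 0.019), which served as an alternative. They correlated with the scanner values at r of 0.926 or more, and per the methods the authors kept in them only features without a flag and with significant signal.

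Control spots and outlier-marked spots were left out, and spots of a probe were averaged. Processed intensities were divided by the 75th percentile of the array, set to a floor of 1.43% of it (log2 -6.13, since 10.1% to 17.0% of signals were at or below 0) and taken to log2. A probe entered the fit if some condition had it well above background on each of its 3 arrays (31061 probes did). Where a gene had several, the one brightest on average over the arrays was used, with the others given beside it. All 24 arrays were fitted with 1 mean per condition in limma 3.58.1 (lmFit, eBayes with trend, R 4.3.3). P-values are two-sided and adjusted by Benjamini-Hochberg over 24643 genes, and a gene was called at an adjusted p under 0.05. Tested on simulated data for Wnt3a in untransfected cells (31011 features, 200 changed), the fit recovered 73.5% at a log2 change of 1 and 94% at 2, and for the difference between FZD8_CRD and untransfected cells 46% and 83%. Of the calls, 5.77% and 4.57% were false for Wnt3a in untransfected cells, and 8% and 5.14% for that difference.

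The 10 genes, the lists and the tests were chosen with earlier results of these data known. All 10 were described whatever their values. From each list up to 4 called genes were named by the smallest adjusted p, with the 3 genes most like each called member over the arrays. ZBTB20, ZHX2, FHL1, FOXA3 and TUT7, single genes of a direction, and genes named as not measured fall outside this rule and were chosen after their values were seen. The slide number in the file headers equals the replicate number, so that numbers pair arrays: 82 of 84 same-numbered pairs deviated together at r over 0.1 (mean 0.38, against -0.19 for other pairs), and the other pairs were at -0.056 and 0.0664. Alternatives were another normalization, background correction, floor, filter, choice of probe, block and set of arrays. The floor and normexp on the median signal were set after seeing the files. Gene names, positions and sequences are from RefSeq (GRCh38.p14). Some genes that the naming rule reaches are not reported here.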

Additional observations from a re-analysis of the deposited data

Results flagged for a closer look

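IGF2BP1 values near background went in different directions with Wnt3a in different settings, which does not show that its response differed. Its values were higher with Wnt3a after control siRNA on all 3 slides (mean 0.13, with 0.0006 on slide 2). In the presence of FZD8_CRD they were lower with Wnt3a on all 3 (mean -0.13). The gap of 0.26 on the log2 scale is between values near background and is not a measured size. The difference itself was not tested and neither change passed the test on its own. The probe was well above background on 1 of 3 arrays with FZD8_CRD and on 0 of 3 with FZD8_CRD plus Wnt3a. Hence neither the sign nor the size of the change with Wnt3a in FZD8_CRD was measured. The gene is given because it showed this pattern.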

How the results depend on the processing

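For 35 single results of the genes, 830 further fits were made: 675 kept direction and side of the threshold, 115 kept the direction and lost the call, 36 kept the direction and gained it, and 4 turned. Those 4 were IGF2BP3 in FZD8_CRD against untreated cells (0.33 in the reported fit), at -0.056 scaled to spike-ins, where the median of all genes was lower still at -0.47, and at -0.35 without slide 3, -0.36 without FZD8_CRD array 3 and -0.40 without that array with the slide as a block. With the arrays left out one at a time or slide by slide it ran from -0.36 to 0.70. Scaled to spike-ins, the number of the 9 genes called was 0 with Wnt3a in untransfected cells (1.17% of all genes), 1 with FZD8_CRD (0.994%), 0 and 0 for control siRNA (6.55% and 0.877%), 0 and 0 for CTNNB1 siRNA (0.714% and 2.63%), and 2 and 3 for FZD8_CRD (30% and 9.47%), without and with Wnt3a. That scaling rests on 7 spike-in probes and moved the median of all genes by -0.39 to 0.27 over the 10 comparisons of conditions, and by -0.29, 0.30 and 0.55 for the differences in response of CTNNB1 siRNA from control siRNA, FZD8_CRD from untransfected cells and control siRNA from untransfected cells. The reason for these losses was not tested.

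With no filter, 1 gene was called with Wnt3a in untransfected cells (2.06% of all genes) and 1 and 1 for CTNNB1 siRNA (5.13% and 5.68%). With the mean of all probes of a gene the number was 1 with Wnt3a in untransfected cells (5.17%), 1 for control siRNA without Wnt3a (22.2%) and 1 and 1 for CTNNB1 siRNA (10.1% and 10.3%). Normexp background correction left 1 for CTNNB1 siRNA with Wnt3a (8.55%), and no moderation 1 with Wnt3a in untransfected cells (4.82%). With only the conditions compared (6 arrays, fewer degrees of freedom) the number was 0 with Wnt3a in untransfected cells (0.00812%), 3 after control siRNA (5.39%), 0 with FZD8_CRD (0%) and 0 for control siRNA with Wnt3a (0.00406%). By the thresholds of the study it was 0 with Wnt3a in untransfected cells, 1 after CTNNB1 siRNA, 1 for control siRNA, and 1 and 1 for CTNNB1 siRNA. The replicate block gave 1 with Wnt3a after control siRNA (4.35%) and changed no call of the 9 genes beyond those given beside the results. Calls of genes on the other lists changed with it as well, among them ACTB, PCNA, GPC6 and CEBPA with Wnt3a in untransfected cells (adjusted p = 0.0319, 0.0443, 0.0412 and 0.0422) and ALB, FHL3 and CD24 after control siRNA (0.0244, 0.0328 and 0.0442). Without FZD8_CRD array 3 and with the replicate block the number with Wnt3a was 3 in untransfected cells (17.2% of all genes), 3 after control siRNA (9.15%), 2 after CTNNB1 siRNA (2.25%) and 6 with FZD8_CRD (27.4%). Without and with Wnt3a it was 3 and 2 for control siRNA (36.6% and 20.2%), 3 and 3 for CTNNB1 siRNA (20.8% and 19.6%), and 7 and 8 for FZD8_CRD (51.9% and 51.7%), and it was 3 for the difference between FZD8_CRD and untransfected cells (13.6%). These alternatives without that array were chosen after seeing the data.

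With arrays or slides left out, the number of genes called ranged from 0 to 3 with Wnt3a in untransfected cells, 0 to 3 after control siRNA, 0 to 0 after CTNNB1 siRNA and 0 to 6 with FZD8_CRD. It ranged from 0 to 3 and 0 to 2 for control siRNA, 0 to 2 and 0 to 3 for CTNNB1 siRNA, 3 to 5 and 3 to 6 for FZD8_CRD, and 0 to 0, 0 to 3 and 0 to 0 for the differences in response. The share of all genes called moves with the arrays as well. For Wnt3a with FZD8_CRD it was 8.29% with all arrays and 19.9% without FZD8_CRD array 3. These ranges therefore cannot be read as particular to these genes. Signal over background limits IGF2BP1 and leaves SALL4 without a test.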
